A study of Homo sapiens with 12 samples.

Results

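In untreated human cells, paired ribosomes were spread very unevenly over mRNAs. This account covers the load of disome footprints on each mRNA without drug, taken as the log2 ratio of disome CPM to RNA-seq CPM, where CPM is a count scaled to the library total. Transcript rows were kept when their coding length was at least 100 codons and their mean RNA-seq level with DMSO was at least 10 CPM. Of 93916 coding rows, 18956 met both limits, and merging rows with identical DMSO counts left 16440. The selection used length and mRNA level but not disome counts. The level limit uses the same RNA-seq counts as the denominator of the ratio.

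The cells were HEK293T Flp-In, derived from human embryonic kidney and fitted with a site for inserting transgenes, of a genotype labelled wild type. In all groups they were exposed for 2 h, to DMSO, the solvent, or to girolline, a marine sponge product, at 1 or 10 µM. The ratio rests on 2 disome and 2 RNA-seq libraries with DMSO, and the girolline libraries, 1 of each kind per dose, served only to follow the same rows. The cells are 1 line. Separate cultures are not stated for the DMSO libraries, so the p-values reflect only how these libraries vary, which may be technical.

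When a ribosome slows or stops, the one behind it can run into it, and RNase then leaves a longer protected fragment that covers both. Such disome footprints mark places where ribosomes queue, and they also become more frequent where an mRNA simply carries many ribosomes. Cells read collided ribosomes as a sign of faulty translation, and eIF5A, the factor named in the series title, helps ribosomes through slow peptide bonds and at stop codons. RNA-seq gives the amount of mRNA available. Both kinds of count can grow with coding length. The ratio is therefore a load relative to RNA-seq signal, not a number of ribosome pairs per mRNA molecule. It cannot tell queuing from a high number of translating ribosomes.

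Total counts were 3091715 and 5151900 in the DMSO disome libraries and 32586618 and 42194871 in the DMSO RNA-seq libraries. The median row held 47 and 83 disome counts, against 681 and 881 RNA-seq counts. Only 154 of the 16440 rows, or 0.937%, had fewer than 10 disome counts over both DMSO libraries. Transcript IDs come without gene names in the tables used here, and no ID of a coding row could be matched to one, so transcripts are described by coding length and 4 are given by ID. No gene groups or sequences could therefore be shown.

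The load spanned a wide range. Its median was -0.53 on the log2 scale, with quartiles of -1.33 and 0.21, which is a 2.92-fold distance. The 5th and 95th percentiles were -2.69 and 1.24, a 15.3-fold distance, and the extremes were -6.84 and 5.66. Most of this range recurred in both DMSO pairs, where a pair is the disome and the RNA-seq library of the same number. Pair 1 had a median of -0.57 and an SD of 1.24 over rows, and pair 2 a median of -0.50 and an SD of 1.23. After removal of the shift between the pairs, the median absolute difference of a row was 0.23, and 410 rows, or 2.49%, differed by more than 1. Across the 16440 rows, Pearson's r between the pairs was 0.94 and Spearman's rho 0.95. Rows are not independent, since isoforms share reads.

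**Figure D1:**
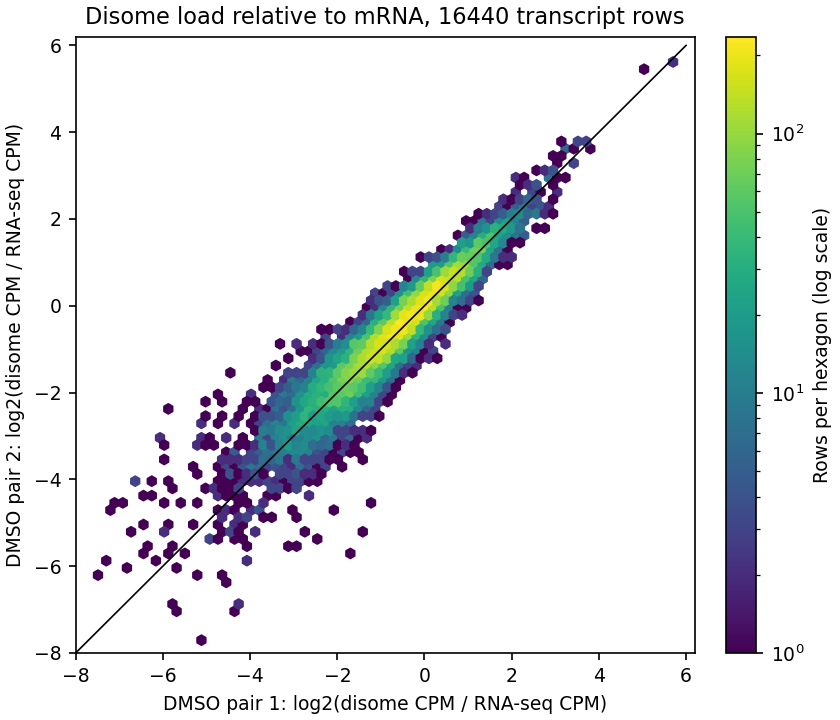
Log2 ratio of disome CPM to RNA-seq CPM with DMSO in pair 1 (x axis) and pair 2 (y axis), for all transcript rows kept. Hexagons are coloured by the number of rows in each, on a log scale. Rows follow the line of equality from -4 to 4, scatter is widest below -4, and a few rows stand alone above 5.

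Tested row by row, disome load differed from that of the typical mRNA on most rows. At an adjusted p under 0.05, 5351 of the 16440 rows lay above the typical load and 6090 below it (edgeR's quasi-likelihood test). Over all 50525 rows tested, 25.5% were called above and 27.7% below, and here the shares were 32.5% and 37.0%. With a difference of 2-fold or more also required, 2575 rows lay above and 3763 below, or 15.7% and 22.9%, beside 17.0% and 21.6% of all rows tested. All 16440 rows passed the filter on low counts. The typical load is set by TMM scaling, which added 0.44 to the plain log2 ratio at the median row. Of the rows called, 46.8% were above with TMM, and 27.3% with library totals alone, so which rows count as above the typical load depends on the scaling. A constant shift does not reorder the rows, but the log2 ratio in the test is not exactly the plain ratio plus a constant. Of the 10 lowest rows described below, the 5th had -3.45 in the test and a plain ratio of -3.80. The 9th had -3.39 in the test and a plain ratio of -3.87, so the 2 orders can differ.

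The uppermost end held both very short and very long coding regions. Among the 10 highest rows with at most 1 per block of 10 neighbouring coding rows, coding lengths ran from 122 to 5647 codons, 3 were under 200 codons and 4 were 1000 codons or more. Their log2 ratios in the TMM-scaled test ran from 3.85 to 6.11. At 1 µM girolline 9 of the 10 had a plain ratio below both DMSO pairs and 1 above both. At 10 µM 9 lay below both and 0 above. The rows were chosen by their DMSO values, so lower values in other libraries can follow from the choice, which was not tested. The highest 1% of all rows, 164 rows in 100 such blocks, had plain log2 ratios of at least 1.99 and included 66 rows under 200 codons and 17 of 1000 or more.

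Transcript uc060fcl.1, of 122 codons, carried the highest load. It had 1603 and 2630 counts in the DMSO disome libraries, against 324 and 438 in the DMSO RNA-seq libraries. In CPM these were 518 and 510 for disomes, against 9.94 and 10.4 for mRNA, so its disome libraries lay far above its RNA-seq libraries without overlap. Its log2 ratio in edgeR's quasi-likelihood test was 6.11 (SE 0.16, n = 2 libraries of each kind), 69.0-fold above the typical row, with adjusted p = 2.20e-312. Per 100 codons its disome level was 422 CPM, where the median row had 3.17. Its mRNA level per 100 codons was 9.96 CPM, where the median row had 5.42. Such levels are higher in short rows: from 100 to under 200 codons the medians were 9.51 CPM for disomes and 15.7 CPM for mRNA. Its mRNA level thus lay below the median of its length class. Over the whole transcript its mean mRNA level was 10.2 CPM, just inside the limit of 10 CPM. Another row of the same block had nearly the same plain ratio, 5.66, and isoforms of a locus share reads. Its plain log2 ratio was 5.70 and 5.62 in the DMSO pairs, 5.55 at 1 µM girolline and 5.67 at 10 µM, where its disome level was 474 CPM, so the load hardly varied over these libraries.

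Transcript uc031usp.2, of 5647 codons, was the highest row of any other block. It had 2250 and 4882 counts in the DMSO disome libraries, against 737 and 909 in the DMSO RNA-seq libraries, or 728 and 948 CPM against 22.6 and 21.5 CPM. Its log2 ratio was 5.69 (SE 0.15, n = 2 of each kind), and edgeR's test gave adjusted p = 5.78e-307. Of 4 rows in its block the lowest had a plain log2 ratio of 0.55, so not all of its neighbours shared the load. Per 100 codons its disome level was 14.8 CPM, above the median row's 3.17 and well below that of uc060fcl.1 on the same scale. Its mRNA level per 100 codons was 0.39 CPM, far below the median row's 5.42. For rows of 1000 codons or more these medians were 1.35 CPM for disomes and 1.72 CPM for mRNA. Its plain log2 ratio was 5.01 and 5.46 in the DMSO pairs, 4.31 at 1 µM girolline and 3.80 at 10 µM, so both girolline values lay below both DMSO values. How reads with several matches were counted is not given in the sources used here, and its part in these values was not tested.

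At the lower end, disome counts were low relative to the mRNA level, and not always low in themselves. Of the 10 lowest rows described next, 1 had 208 and 352 disome counts in the DMSO libraries, more than the median row, against 34315 and 38014 RNA-seq counts. Among the 10 lowest rows with at least 10 disome counts in each DMSO library and at most 1 per block, coding lengths ran from 133 to 1499 codons and the log2 ratio in the TMM-scaled test from -4.34 to -3.37. These rows did not move as 1 group, since at 10 µM girolline 5 of the 10 lay above both DMSO pairs and 3 below both. They too were chosen by their DMSO values, so higher values in other libraries can follow from the choice. The lowest 1% of rows lay at plain log2 ratios of -3.77 or less and comprised 164 rows in 99 blocks, 64 of them under 200 codons and 4 of 1000 or more. 2 neighbouring rows, of 102 and 108 codons, had no disome count in either DMSO library. Their RNA-seq means were 10.4 and 10.1 CPM, and a limit of 3 counts over both disome libraries puts their log2 ratios at -4.88 or less and -4.81 or less, for counting error only.

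Among all 16440 rows, with no limit on disome counts or rows per block, uc003qdx.4 and uc021yiq.3 ranked 50th and 64th from the bottom by plain ratio. Transcript uc003qdx.4, of 133 codons, had 28 and 46 counts in the DMSO disome libraries, against 7909 and 10641 in the DMSO RNA-seq libraries. These are 9.06 and 8.93 CPM for disomes, against 243 and 252 CPM for mRNA, again with no overlap. Its log2 ratio was -4.34 (SE 0.19, n = 2 of each kind), 20.2-fold below the typical row, with adjusted p = 2.35e-113 in that edgeR test. At 1 and 10 µM girolline it had 118 and 580 disome counts, or 25.1 and 101 CPM, and its mRNA level was 261 and 157 CPM. The plain log2 ratio was -4.72 and -4.80 in the DMSO pairs, -3.37 at 1 µM and -0.64 at 10 µM, so the girolline libraries were closer to the typical load. Per 100 codons its DMSO disome level was 6.76 CPM, above the 3.17 of the median row of all lengths. It lay below the median of 9.51 CPM for rows of 100 to under 200 codons. Its mRNA level per 100 codons was 219 CPM, where these medians were 5.42 and 15.7 CPM.

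Transcript uc021yiq.3, of 209 codons, had 14 and 15 counts in the DMSO disome libraries, against 2957 and 3668 in the DMSO RNA-seq libraries. Its log2 ratio was -4.20 (SE 0.24, n = 2 of each kind), and edgeR's test gave adjusted p = 1.42e-66. The plain log2 ratio was -4.27 and -4.85 in the DMSO pairs, -4.35 at 1 µM girolline and -3.65 at 10 µM, low in every library. Per 100 codons its DMSO disome level was 1.78 CPM and its mRNA level 47.0 CPM. The 4 rows of its block were alike, from -4.65 to -4.40.

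**Figure D2:**
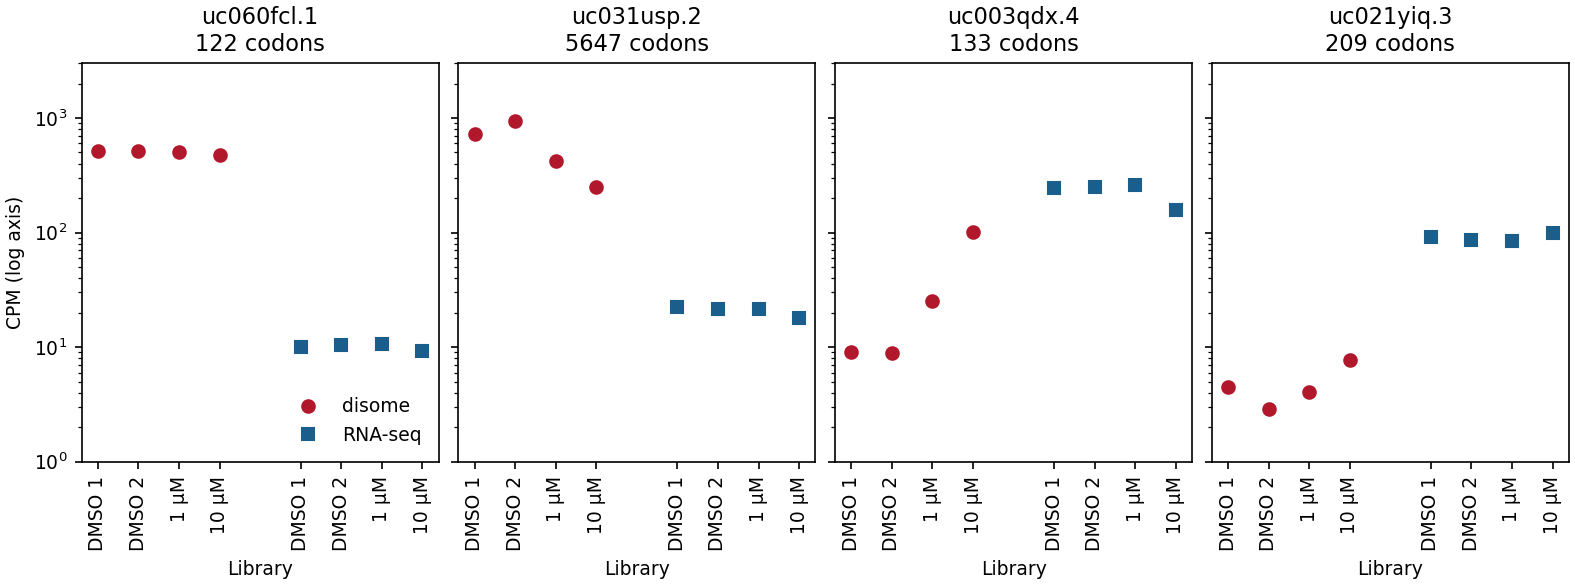
CPM on a log axis of the 2 highest and the 2 lowest rows by log2 ratio in the test, among rows with at least 10 disome counts in each DMSO library and at most 1 per block, with disome libraries as red circles and RNA-seq libraries as blue squares, each in the order DMSO 1, DMSO 2, 1 µM and 10 µM girolline. The DMSO disome values of uc003qdx.4 lie near 9 CPM and its 10 µM value at 101 CPM.

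The load varied most among short coding regions. At 100 to under 200 codons the quartiles of the plain log2 ratio were -1.64 and 0.23, and the interquartile range was 1.87. The range was 1.82 from 200 to under 300 codons, 1.63 from 300 to under 500, 1.40 from 500 to under 1000 and 1.21 from 1000 upward. The median absolute difference between the DMSO pairs varied less over these classes, from 0.25 in the shortest to 0.20 in the longest. The median disome count over both libraries was 116 for the shortest coding regions and 166 for the longest. Among the 822 rows in the lowest 5%, 253 had under 200 codons and 26 had 1000 or more, which is 8.37% and 1.01% of those classes. Of the highest 5%, 230 and 87 rows came from these classes, or 7.61% and 3.39% of them. Short coding regions were thus more frequent at both ends than long ones, and the difference was larger at the lower end.

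The centre of the classes shifted less, and its order depended on which rows were kept. Median plain log2 ratios were -0.69 under 200 codons, -0.73 from 200 to under 300, -0.60 from 300 to under 500, -0.42 from 500 to under 1000 and -0.40 from 1000 upward. In the TMM-scaled test the difference between the longest and the shortest class was 0.30. It was 0.48 after allowing for the 20 codons that RNA-seq lengths leave out and 0.43 with a limit of 5 CPM. It shrank to 0.035 with a limit of 20 CPM and to 0.045 with 1 row kept per block, the one with the highest CPM over both kinds. With 1 row per block chosen by RNA-seq CPM alone it was 0.16. With 1 row per block the plain medians were -0.39 under 200 codons and -0.34 from 1000 upward, and the shortest class still spread more widely, with quartiles of -1.33 and 0.54, against -0.99 and 0.22 for the longest.

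By the edgeR test, 941 of 3022 rows of 100 to under 200 codons lay above the typical load and 1313 below, or 31.1% and 43.4%, where all rows tested of that length had 21.7% and 30.0%. Among 2566 rows of 1000 codons or more, 862 lay above and 750 below, or 33.6% and 29.2%, where all rows tested of that length had 30.0% and 23.7%. With a 2-fold difference required, 561 of the shortest rows were above and 910 below, or 18.6% and 30.1%, beside 16.8% and 26.0% of all rows tested of that length. Of the longest, 347 were above and 350 below, or 13.5% and 13.6%, beside 14.8% and 12.9%. Without the 2-fold limit, the shares of both classes lay above those of all rows tested, more so for the shortest rows. With the limit they lay closer to them.

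**Figure D3:**
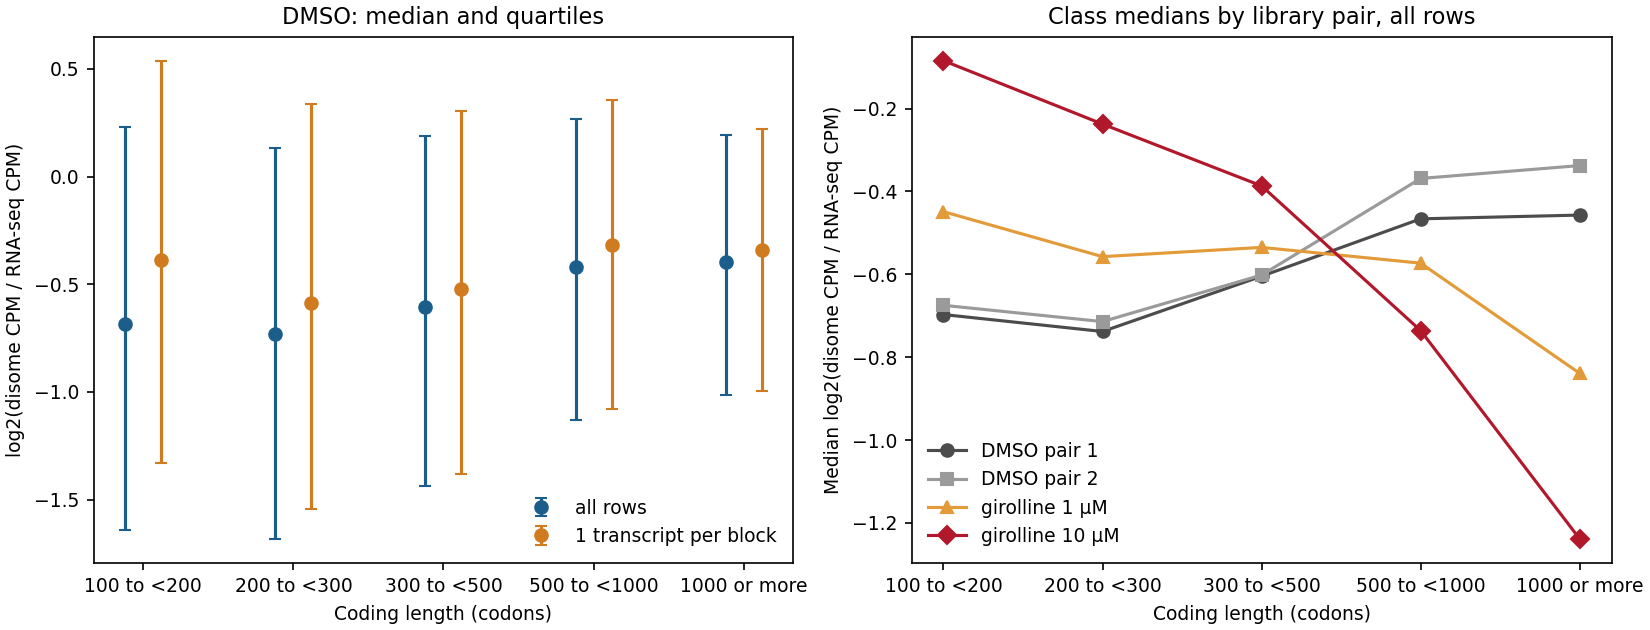
Left, median log2 ratio of disome CPM to RNA-seq CPM with DMSO by coding length class, with bars from the lower to the upper quartile, for all rows (blue) and with 1 transcript per block (orange). Right, class medians in each library pair, which run from -0.70 and -0.67 under 200 codons to -0.46 and -0.34 at 1000 or more in the DMSO pairs, and from -0.08 to -1.24 at 10 µM.

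Rows with a higher RNA-seq CPM had a somewhat higher ratio. This CPM is not divided by coding length, so the classes mix mRNA abundance with length. To keep the level apart from the denominator, rows were classed by RNA-seq DMSO 1 and the ratio was read in pair 2. The median log2 ratio was -0.63 for 7380 rows at 10 to 20 CPM, -0.49 for 5892 at 20 to 50 CPM, -0.25 for 1602 at 50 to 100 CPM and -0.15 for 1143 at 100 CPM or more. Classed by RNA-seq DMSO 2 and read in pair 1, the medians were -0.68, -0.56, -0.36 and -0.19 in the same order. The quartiles of neighbouring classes overlapped widely, from -1.44 to 0.19 in the lowest class and from -0.88 to 0.58 in the highest.

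On either side of the limits of the selection, values were as follows. Rows of 100 to under 110 codons had a median of -0.36 (n = 240), and excluded rows of 90 to under 100 codons one of -0.45 (n = 159). Rows at 10 to 11 CPM had a median of -0.66 (n = 1228), and excluded rows at 9 to 10 CPM one of -0.58 (n = 1377).

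Neighbouring rows, which are often isoforms, resembled each other. Within 4054 blocks that held at least 2 rows the SD of the load was 0.68, against 1.21 over all rows. For 8401 pairs of directly adjacent rows the median difference was 0.12 in size, and 8.18% of these pairs differed by more than 1. In 549 blocks, or 13.5%, the highest and lowest rows lay more than 2 apart on the log2 scale, so that rows close in the table can carry unlike loads. A block can hold more than 1 gene, and these were not told apart.

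Rows at the 2 ends of the ranking held unlike shares of the disome and the RNA-seq counts. With 1 transcript per block, 5245 rows remained, and the 262 with the highest load held 20.5% and 19.7% of the disome counts of these rows, against 6.0% and 5.56% of the RNA-seq counts. The 262 with the lowest load held 0.483% and 0.524% of disome counts, against 5.00% and 5.01% of RNA-seq counts. The row kept per block was the one with the highest DMSO CPM over both kinds, so rows high in disomes were favoured. These shares describe how the rows were chosen and ranked and are no test. In the girolline libraries, which had no part in the ranking, the 262 highest rows held 16.8% of disome counts at 1 µM and 11.6% at 10 µM, and 5.70% and 6.27% of RNA-seq counts. The 262 lowest held 0.585% and 1.07% of disome counts at these doses, and 5.00% and 4.64% of RNA-seq counts. Since the rows were chosen by their DMSO values, less extreme disome shares in other libraries can follow from the choice, which was not tested.

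The order of loads seen without drug was largely kept at 1 µM girolline and less so at 10 µM. Spearman's rho of the DMSO load with that at 1 µM was 0.89 across rows, and with that at 10 µM 0.60. Isoforms share reads in each of these libraries, whose totals ran from 3091715 to 5769026 for disomes and from 28424272 to 42194871 for RNA-seq. The overall width did not narrow, since the SD over rows was 1.24 at both doses. Of the 822 rows in the highest 5% with DMSO, 539 or 65.6% were in the highest 5% at 1 µM and 287 or 34.9% at 10 µM. Of the 822 lowest, 521 or 63.4% and 358 or 43.6% were in the lowest 5% at these doses. Chosen in pair 1 alone, 657 of the 822 highest and 554 of the 822 lowest were at the same end in pair 2, or 79.9% and 67.4%.

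At 10 µM the rows of both ends lay closer to the middle than in the DMSO pair that had not chosen them. Rows in the highest 5% of pair 1 had a median of 1.59 in pair 2, 1.43 at 1 µM and 0.95 at 10 µM. Those in the lowest 5% of pair 1 had medians of -3.06, -3.03 and -2.49 in the same libraries. Chosen in pair 2, the highest had 1.54 in pair 1, 1.41 at 1 µM and 0.85 at 10 µM, and the lowest -3.10, -3.11 and -2.46. No row from the lowest 5% of pair 1 lay above the median of all rows in pair 2, while 1 did at 1 µM and 72 did at 10 µM. There was 1 library of each kind per dose, so these differences have no test.

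Disome and mRNA levels of the rows at either end are given apart. In the highest 5%, the median disome level was 84.4 and 75.4 CPM in the DMSO libraries, 74.1 CPM at 1 µM and 57.3 CPM at 10 µM, and the median mRNA level 23.1 and 22.1 CPM in the DMSO libraries, 23.1 CPM at 1 µM and 24.7 CPM at 10 µM. In the lowest 5%, the median disome level was 1.94 and 2.14 CPM in the DMSO libraries, 2.44 CPM at 1 µM and 3.47 CPM at 10 µM, and the median mRNA level 19.5 and 20.4 CPM in the DMSO libraries, 20.7 CPM at 1 µM and 18.6 CPM at 10 µM. In proportion to their DMSO values, the disome medians moved further at 10 µM than the mRNA medians did, at both ends. The rows were chosen by their DMSO ratios, so a return of disome values toward the middle can follow from the choice, which was not tested. In the lowest 5% the median disome counts were only 6 and 11 in the DMSO libraries.

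Rows that left the lower end were mostly under 500 codons, as were most rows of that end. Of the lowest 5% in both DMSO pairs together, 75 rows in 53 blocks lay above the median of all rows at 10 µM, with coding lengths of 101 to 676 codons, and 71 of them were under 500 codons. Their median disome count was 7 and 10 in the DMSO libraries, 26 at 1 µM and 86 at 10 µM, and their median RNA-seq count was 622 and 813 in the DMSO libraries, 722 at 1 µM and 432 at 10 µM. From the highest 5%, 15 rows in 10 blocks lay below the median of all rows at 10 µM, with a median coding length of 835 codons. Their median disome count was 180 and 257 in the DMSO libraries, 178 at 1 µM and 88 at 10 µM. Their median RNA-seq count was 707 and 841 in the DMSO libraries, 830 at 1 µM and 766 at 10 µM. These counts are not scaled to the library totals, and the RNA-seq total was lowest at 10 µM, with 28424272. Both sets of rows were chosen by their ratios with DMSO and at 10 µM, so the direction of the ratio between these was fixed by the choice.

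**Figure D4:**
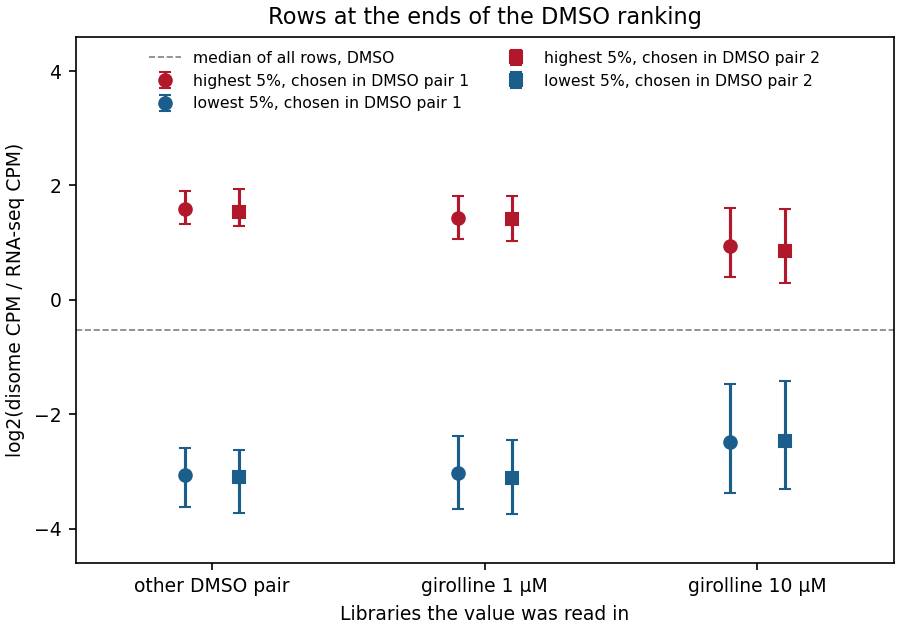
Median log2 ratio of disome CPM to RNA-seq CPM, with bars from the lower to the upper quartile, of the 822 rows in the highest 5% (red) and the 822 in the lowest 5% (blue) of 1 DMSO pair, read in the other DMSO pair and at each girolline dose, with the DMSO median of all rows as a dashed line. At 10 µM the highest rows lie at 0.95 and 0.85 and the lowest at -2.49 and -2.46.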

How the data were processed

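The authors deposited unnormalized read counts per transcript for 12 libraries. STAR 2.7.0a, CASAVA 1.8 and build hg38 appear in the submitters' processing notes without a stated role. The counter, annotation and treatment of multiply matching reads are not given in the sources used here. The deposited tables also hold another value, a coding length in codons as inferred from the values, which in RNA-seq lies 20 below that in disome tables. Monosome tables use other IDs and were not used here.

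Disome and RNA-seq tables were joined by ID in Python 3.11.15 with pandas 2.3.3. Of rows with the same 4 DMSO counts the longest was kept. Ratios used library totals with 0.5 added to each count. On the whole table, edgeR 4.0.16 (R 4.3.3) was run on the deposited counts (TMM, filterByExpr, quasi-likelihood test, Benjamini-Hochberg adjustment over 50525 rows, FDR 0.05), with 2 residual degrees of freedom. The test was tried on simulated counts. DESeq2 1.42.0, other scalings, filters and limits, and each library left out were the alternatives. Named rows were the 2 highest and 2 lowest log2 ratios among rows called in the same direction in both pairs with at least 10 disome counts in each DMSO library, at most 1 per block of 10 coding rows. Between the DMSO libraries of a kind, the chi-square per degree of freedom was 2.53 for disomes and 14.4 for RNA-seq, so neither pair is 1 library deposited in duplicate. The rows and classes were chosen with earlier results of these data known.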

Additional observations from a re-analysis of the deposited data

Results flagged for a closer look

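The difference in median log2 ratio between coding regions of 1000 codons or more and those of 100 to under 200 codons pointed one way in both DMSO pairs and the other way at both doses. It was 0.24 and 0.34 in DMSO pairs 1 and 2, -0.39 at 1 µM and -1.15 at 10 µM. With 1 transcript per block it was -0.04 and 0.07 in the DMSO pairs, -0.77 at 1 µM and -1.59 at 10 µM, so pair 1 then had the sign of the girolline libraries. The row kept was the one with the highest DMSO CPM over both kinds, so this choice used the disome counts compared. In the TMM-scaled test with DMSO the difference was 0.045 with that choice, and 0.16 with rows chosen by RNA-seq CPM alone. The difference between groups was not tested, since each dose had 1 library of each kind.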

How the results depend on the processing

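Without a library, 9246 to 11162 rows were called, 4087 to 5036 of them above and 5159 to 6144 below, 2391 to 2578 and 3713 to 4187 of these by 2-fold or more, and the longest class exceeded the shortest by 0.22 to 0.34. Library totals alone gave 3324 above, and 1188 above and 5716 below by 2-fold or more. A limit of 20 CPM, which keeps fewer rows, gave 6206 calls, 3162 above and 3044 below, with 1455 and 1709 by 2-fold or more and a class difference of 0.035. A limit of 5 CPM gave 6193 below by 2-fold or more and a class difference of 0.43. One transcript per block, which keeps fewer rows, gave 3740 calls, 1758 above and 1982 below, with 797 and 1155 by 2-fold or more and a class difference of 0.045. Chosen by RNA-seq CPM alone, a choice made after seeing the data, these were 3787, 1790, 1997, 820, 1213 and 0.16. The offset for 20 codons gave a class difference of 0.48, and the cause of the changes in this difference was not tested. DESeq2 called 10051 rows. The replicate number as a block gave 12285 calls, 5755 above and 6530 below. Deviations of same-numbered libraries correlated at 0.23 across rows, but with 2 numbers and no label of a shared culture they share only a number. The 4 named rows kept their direction under every setting that held them, and their call where no library was left out. They were chosen as extremes in these same libraries, so this is no independent check. The lower disome depth limits rows with few footprints.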
